A study of Homo sapiens with 2 samples.

Results

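The cytosolic ribosome is built from a large (60S) and a small (40S) subunit, and each protein in it is, with few exceptions, encoded by 1 nuclear gene whose name begins with RPL (large) or RPS (small). Cytosolic ribosomal protein genes were taken from the deposited gene table by name. Protein-coding genes called RPL or RPS followed by a number, with an optional A, X or L and further digits, were kept together with RPLP0, RPLP1, RPLP2 and RPSA, and the ribosomal S6 kinases were left out. The rule found 84 of the 38637 genes listed, 52 of the large subunit and 32 of the small subunit. Of these, 77 encode canonical subunits (46 large, 31 small) and 7 are paralogs that carry an L after the number of another member. FAU, RPL36AL and RACK1 fall outside the naming rule and are given separately.

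The RNA came from H1299, an established line of human non-small cell lung carcinoma, in which the series asks how PHF12, a PHD finger protein of the SIN3 corepressors, acts on signalling. There were 2 poly(A)-selected RNA-seq libraries, 1 per group. The control is labelled wild type with no treatment and its title ends in nc, and the other library is labelled wild type with PHF12 knockdown and its title carries si-phf12. The labels do not name the oligonucleotide, the time after knockdown, or any oligonucleotide given to control cells. Depth was 24740581 counts in the control and 26084594 after knockdown. With 1 library per group there was no replicate and no test, so every difference describes these 2 libraries, and each 95% interval covers counting error only. PHF12 itself had 947 counts in the control and 756 after knockdown, a ratio of 0.753 (0.683 to 0.829). VIM, KRT8 and KRT18, known from this line, were abundant, and the blood cell genes PTPRC and CD3E had 0 counts in both libraries, which allows up to 0.121 counts per 1000000 in the control and 0.115 after knockdown.

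Ribosomal protein mRNAs are among the most abundant messages of a growing cell. Most begin with a terminal oligopyrimidine (TOP) tract, a C at the first base followed by a run of C and T, through which mTOR signalling and the RNA-binding protein LARP1 control their translation. RNA-seq reads the amount of these mRNAs and not their translation. Each protein is present in a fixed number per ribosome, and unassembled ones are degraded, apart from roles outside the ribosome that some of them have.

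The TOP tract is the sequence that the members share and that the naming rule did not use. Promoter sequences from RefSeq (GRCh38.p14) were matched by symbol for 67 of the 84 members, and those not matched include RPL3L, RPL5, RPL7, RPL8, RPL23, RPL23A, RPL30, RPL37, RPL39L, RPS2, RPS15A and RPS20. A TOP start was counted where any annotated start of a gene was a C with C or T in each of the next 4 bases. The call rests on the exact annotated base, so a tract a few bases away is not counted. For RPL11 the first listed start had no such run and the second had a run of 8 bases. It was found in 46 of 62 matched canonical members (74.2%), in 28 of 38 of the large subunit and 18 of 24 of the small subunit. Among the 27305 genes in the same table, 5.14% held it, and among 10329 matched protein-coding genes measured here, 7.38%. Only 1 of 5 matched paralogs, RPL22L1, had such a start. The windows below run from 15 bases before the annotated start to 15 bases from it on, 5′ to 3′, with the TOP run in capitals. They show canonical members of both subunits, then 3 paralogs under their partners, and RPS26, which has no such run.
RPL13A (chr19:49487593-49487622, plus strand): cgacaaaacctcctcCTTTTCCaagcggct
RPL35 (chr9:124861943-124861972, minus strand): agccccgcctacttcCTCTTTCCCTCggag
RPS6 (chr9:19380222-19380251, minus strand): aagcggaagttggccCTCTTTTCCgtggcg
RPS12 (chr6:132814554-132814583, plus strand): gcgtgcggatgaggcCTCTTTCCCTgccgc
RPS24 (chr10:78033848-78033877, plus strand): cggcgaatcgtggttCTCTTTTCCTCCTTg
RPL22 (chr1:6199581-6199610, minus strand): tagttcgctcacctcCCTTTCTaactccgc
RPL22L1 (chr3:170870181-170870210, minus strand): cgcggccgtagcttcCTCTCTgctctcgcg
RPS27 (chr1:153990747-153990776, plus strand): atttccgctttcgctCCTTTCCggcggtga
RPS27L (chr15:63157463-63157492, minus strand): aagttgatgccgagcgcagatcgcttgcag
RPL26 (chr17:8383179-8383208, minus strand): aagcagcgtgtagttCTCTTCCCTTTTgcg
RPL26L1, first of 2 listed starts (chr5:172958714-172958743, plus strand): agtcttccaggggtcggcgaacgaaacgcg
RPS26 (chr12:56041903-56041932, plus strand): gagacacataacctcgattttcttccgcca

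Other promoter words were searched on both strands of the same 300-base windows, from 250 bases before the start to 50 after. The ETS-factor word CCGGAAG was present in 22 of 62 canonical members (35.5%), against 22.5% of the measured protein-coding genes and 12.2% of all genes in the table. AAGATGGC, part of the YY1 motif, was present in 9.68% of canonical members, 6.44% of measured protein-coding genes and 3.52% of all genes. The TATA word TATAAA was present in 8.06% of canonical members, 8.21% of measured protein-coding genes and 14.0% of all genes. A match is a word in a window and shows no binding.

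Ribosomal protein transcripts stood at almost the same level in both libraries, a few percent lower in the PHF12 knockdown library, and the ratio was nearly the same for the large and the small subunit. The 84 genes took 1464836 counts, or 5.921% of the control library (exact 95% interval 5.911 to 5.93), and 1485845 counts, or 5.696% of the knockdown library (5.687 to 5.705). After TMM scaling the summed counts of the knockdown library were 0.9565 of those of the control (0.9543 to 0.9587). A lower RNA content in each cell and fewer cells holding the transcripts cannot be told apart in such shares. For the large subunit the ratio was 0.9567 (0.9539 to 0.9595) and for the small subunit 0.9562 (0.9528 to 0.9597).

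Of the 84 members, 83 passed the minimum of 1 count per 1000000 (CPM) as the mean of both libraries, and RPL10L did not. Ratios of groups below use CPM with 0.5 added, on the log2 scale, knockdown over control. The median of the 83 members was −0.053, beside −0.007 over all 14559 genes measured. Of the members, 70 lay below 0 and 13 above, where 51.6% of all genes measured lay below 0. Under the deposited TPM, whose scale puts the median of all genes at 0.017, the split was 61 of 83 below 0 (73.5%) against 46.5% of all genes, so the number below 0 moves with the scaling while the members stay lower than the middle of the transcriptome. The large subunit had a median of −0.048 over 51 genes, 41 of them below 0, and the small subunit a median of −0.054 over 32 genes, 29 of them below 0. The medians of both subunits differed by 0.0056. In TPM, which divides by gene length, the large subunit summed to 1.331 times the small subunit in the control and to 1.329 times in the knockdown library.

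The members were also held close together. A difference of at least 1.2-fold was found for 1 member upwards, the sparsely counted paralog RPL3L, and for 0 downwards, where 10.3% of all genes measured were at least 1.2-fold higher and 11.7% at least 1.2-fold lower (22.0% in either direction). None of the 83 reached 1.5-fold, where 1.33% of all genes were at least 1.5-fold higher and 1.41% lower (2.73% in either direction), nor 2-fold, which 0.117% passed in each direction (0.234% in either). All 77 canonical members lay between ratios of 0.902 and 1.08, and 70 of them within 1.1-fold. Low counts widen the ratios of most other genes, so abundant genes are the closer comparison. Among the 837 other genes at or above 200 CPM, the level of the lowest canonical member, 8.24% were at least 1.2-fold different (3.70% higher, 4.54% lower), 47.4% lay below 0, and 65.6% lay within the range of the canonical members. The standard deviation of the log2 ratio was 0.052 over the canonical members, 0.175 over those 837 genes and 0.24 over all genes measured.

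**Figure D1:**
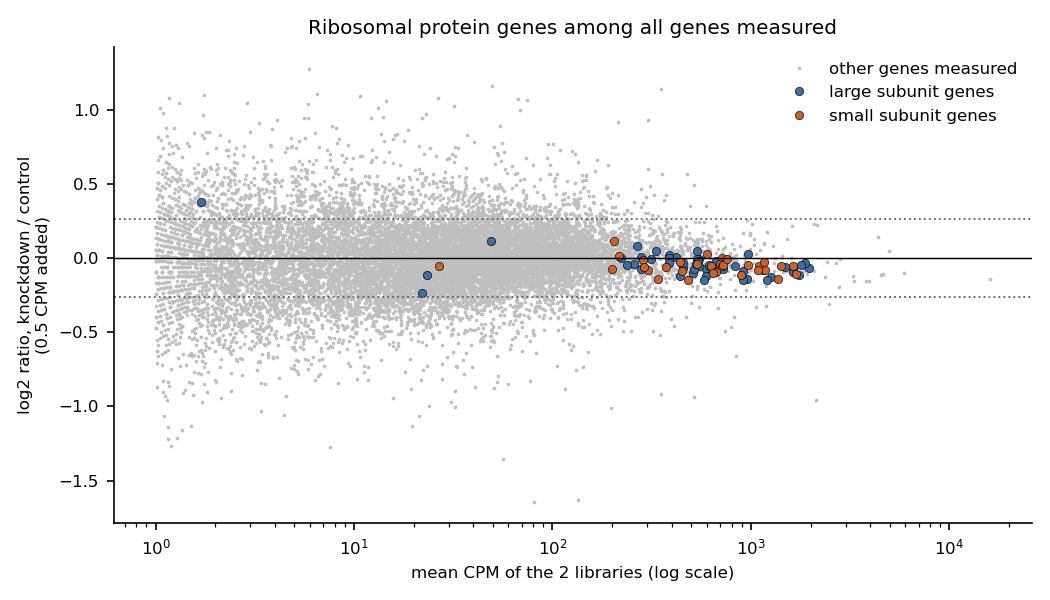
Mean CPM of both libraries (x axis, log scale) against the log2 ratio of knockdown over control with 0.5 CPM added (y axis) for genes measured, with large subunit genes in blue, small subunit genes in orange, and other genes in grey. Dotted lines mark 1.2-fold, and 82 of the 83 ribosomal protein genes lie between them, with a median of −0.053.

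The differences among members were nonetheless larger than counting error for part of the set. With a median interval half-width of 0.032 on the log2 scale, 41 of the 77 canonical members had an interval that included the common ratio of the canonical set (0.956), 15 lay below it and 21 above. The interval excluded equal levels downwards in 53 canonical members and upwards in 3 (RPL11, RPL27 and RPS26), and included them in 21. Of all genes measured, the interval lay below equal levels in 20.9% and above in 20.3%, and of the 837 other abundant genes in 34.8% and 39.4%. These counts move with the scaling, to 48 below and 5 above with total counts and to 42 below and 6 above with DESeq2 size factors. Between single cultures such differences have no replicate check.

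**Figure D2:**
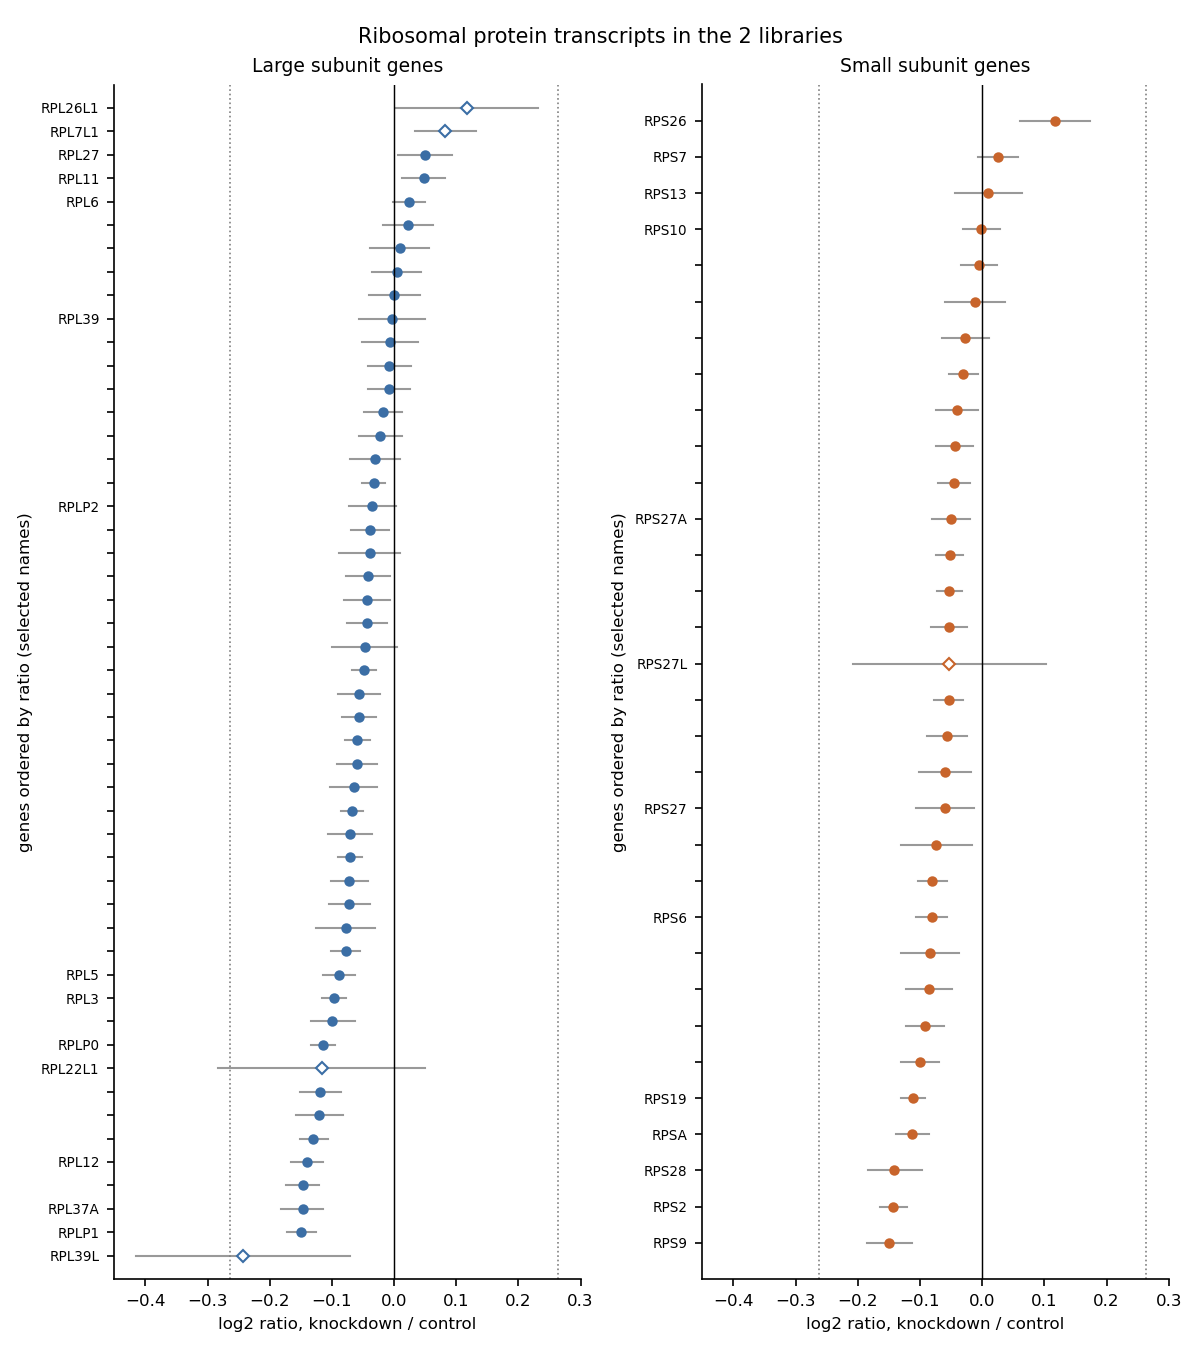
Log2 ratio of knockdown over control (x axis, no pseudocount) with 95% counting intervals (bars) for 50 large subunit genes (left) and 32 small subunit genes (right), ordered by ratio, with filled circles for canonical members and open diamonds for paralogs, and names at selected genes. Dotted lines mark 1.2-fold, RPL3L lies outside the axis at 0.49 and is not drawn, and RPL10L had no counts.

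The P stalk of the large subunit, which recruits the GTPase factors of elongation, had all 4 of its genes below 0, with a median of −0.13. The 77 canonical members had 87% below 0 and a median of −0.054. RPLP1, one of the paired acidic proteins of the stalk, lies on chromosome 15 from 69452818 to 69456205 (hg38). It had 31404 counts (3010 TPM) in the control and 30041 (2760 TPM) after knockdown, a log2 ratio of −0.15 (−0.17 to −0.13), the lowest of the canonical large subunit. RPLP0, which anchors the stalk, had 44549 and 43658 counts (−0.11, −0.13 to −0.095), and RPL12, at the base of the stalk, had 24627 and 23704 counts (−0.14, −0.17 to −0.11). RPLP2, the other acidic protein, had 11341 and 11741 counts, at a log2 ratio of −0.035 (−0.072 to 0.003), so its interval lay above those of the other stalk genes and included equal levels.

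The 5S particle joins RPL5, RPL11 and the 5S rRNA, and outside the ribosome it is known to bind MDM2. Its protein genes stood on opposite sides of 0. RPL5 had 23316 counts in the control and 23254 after knockdown, a log2 ratio of −0.089 (−0.12 to −0.062). RPL11 had 12908 and 14147 counts, a log2 ratio of 0.048 (0.013 to 0.082), and was 1 of 3 canonical members whose interval lay above equal levels.

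Other large subunit genes filled the range between these values. RPL37A, a zinc-binding protein gene on chromosome 2 from 216498844 to 216504086, had 15004 counts in the control and 14365 after knockdown (−0.15, −0.18 to −0.11). RPL13A, known also for a part in translational silencing of inflammatory mRNAs, had 32379 and 31385 counts (−0.13, −0.15 to −0.11). These genes were lower in the knockdown library by more than counting error, though by less than 1.2-fold. RPL3, which reaches towards the peptidyl transferase centre, had 41699 and 41359 counts (−0.096, −0.12 to −0.077). RPL4, with the most counts of any member, had 49533 and 50127 (−0.067, −0.085 to −0.05), close to the common ratio.

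The highest canonical large subunit gene was RPL27, with 8033 counts in the control and 8821 after knockdown, a log2 ratio of 0.05 (0.007 to 0.094). RPL6 followed RPL11 with 23763 and 25623 counts (0.024, −0.001 to 0.05). Genes of proteins that ring the exit of the nascent peptide tunnel (RPL17, RPL19, RPL23A, RPL26, RPL31, RPL35 and RPL39) had a median of −0.031, with 6 of 7 below 0 and a range from −0.072 to 0.022. RPL35 was the lowest and RPL23A the highest among them.

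The lowest canonical gene of the small subunit was RPS9, whose protein lies at the mRNA entry channel. RPS9, on chromosome 19 from 54200557 to 54207647, had 12447 counts (1040 TPM) in the control and 11905 (952 TPM) after knockdown, a log2 ratio of −0.15 (−0.19 to −0.11). RPS2, its neighbour in the subunit, had 35263 and 33875 counts (−0.14, −0.16 to −0.12). RPS3, another protein of the entry channel, had 24108 and 24766 counts, at a log2 ratio of −0.046 (−0.071 to −0.02), above both and near the common ratio. RPS28, near the mRNA exit, had 8798 and 8464 counts (−0.14, −0.18 to −0.097).

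RPSA, also known as a laminin receptor, had 22905 counts in the control and 22465 after knockdown (−0.11, −0.14 to −0.086). RPS19, the gene most often mutated in Diamond-Blackfan anemia, had 43320 and 42533 counts (−0.11, −0.13 to −0.092). RPS6, the substrate of the S6 kinases downstream of mTOR, had 27538 and 27599 counts, at a log2 ratio of −0.081 (−0.11 to −0.057). RPS6 was thus within the body of the set.

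RPS26 stood apart at the top of the canonical members. Its protein sits at the mRNA exit of the small subunit, and the gene lies on chromosome 12 from 56041918 to 56044697. It had 4819 counts (475 TPM) in the control and 5542 (525 TPM) after knockdown, a log2 ratio of 0.12 (0.061 to 0.17), which is a ratio of 1.08. The next small subunit genes were RPS7, with 14629 and 15791 counts (0.026, −0.007 to 0.058), and RPS13, with 5299 and 5658 (0.01, −0.044 to 0.064). RPS10, RPS3A and RPS21 came next, with log2 ratios from −0.012 to −0.002 and intervals that included equal levels. Genes of the 40S head had a median of −0.054 with all 14 below 0, and those of the body and platform a median of −0.06 with 14 of 17 below 0, so the 3 small subunit genes above 0 all belong to the body and platform.

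Other groupings of the members also had medians below 0, and no difference between them was tested. Canonical members with a counterpart in bacteria and archaea had a median of −0.071, with 30 of 33 below 0, and the other canonical members a median of −0.043, with 37 of 44 below 0. Of 9 genes long known from Diamond-Blackfan anemia, 6 were below 0, with a median of −0.008 and a range from −0.11 for RPS19 to 0.12 for RPS26. Canonical members with a TOP start had a median of −0.056 (41 of 46 below 0), and matched canonical members without one at an annotated start a median of −0.04 (12 of 16 below 0). The second group may hold genes whose tract lies off the annotated base. None of the canonical members in these groups passed 1.2-fold.

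Many ribosomal protein genes carry small nucleolar RNAs (snoRNAs) in their introns, which guide the modification of rRNA. The table lists 59 snoRNAs inside 28 members on the same strand, with up to 4 in a gene (RPL3, RPL4, RPL7A, RPL13A and RPL23A among them). Host members had a median of −0.069 with 26 of 28 below 0, and the 55 measured members with no listed snoRNA a median of −0.05 with 44 below 0. Both groups lay on the same side of 0, and the hosts ranged from −0.15 to 0.022.

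The canonical genes are scattered over 21 chromosomes, with 12 on chromosome 19 and 7 on chromosome 3. After their values were seen, the members on chromosome 19 were singled out, since RPS9, RPS28, RPL13A and RPS19 are among the lowest. Their median was −0.075 with 11 of 12 below 0, beside −0.05 for the 71 members elsewhere and −0.033 for all 1070 genes measured on chromosome 19. Across the 77 canonical members the log2 ratio had a Spearman rho of −0.35 with mean CPM and −0.18 with listed length, as descriptions of points that share the same libraries.

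Levels between genes were compared in TPM, the authors' values per listed gene length. In the control library the canonical large subunit ran from 226 TPM (RPL37) through a median of 1519 to 4750 (RPL7A), and the small subunit from 76.2 (RPS29) through 1858 to 6328 (RPS16). In the knockdown library the same genes bounded both ranges, at 212 and 4640 for the large and 73.7 and 6208 for the small subunit. The most abundant small subunit genes were RPS16, RPS12 (6200 and 6070 TPM) and RPS18 (6150 and 5910 TPM), and of the large subunit RPL7A, RPL8 (4710 and 4630 TPM) and RPL35 (4550 and 4410 TPM). Of the lowest genes by TPM, RPS15A had 392 and 376 TPM in the small subunit.

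Both ends of this order depend on the listed lengths. For 15 of the 77 canonical members the listed length was at least 3 times that of the shortest principal transcript in GENCODE release 29, and for RPS29 it was 25.2 times (7472 against 296 bases). On counts per length of that transcript, RPS29 moved from rank 79 to rank 53 of the 84 members in the control library, RPS19 from 35 to 1 and RPL13 from 54 to 3. RPL37 stayed low, at ranks 76 and 77, and both of its lengths were long (7573 listed and 7686 principal bases). It had 15248 counts in the control, where the median of the canonical large subunit was 14376. The principal lengths can thus also set a rank. The count ratio of a single gene between the libraries does not use the length, but sums over genes do. The ratio of the large to the small subunit, knockdown over control, was 0.9988 on listed and 1.003 on principal transcript lengths. Both lay within 0.0047 of equality, the half-width of counting error from the summed counts, so no direction can be read from either.

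**Figure D3:**
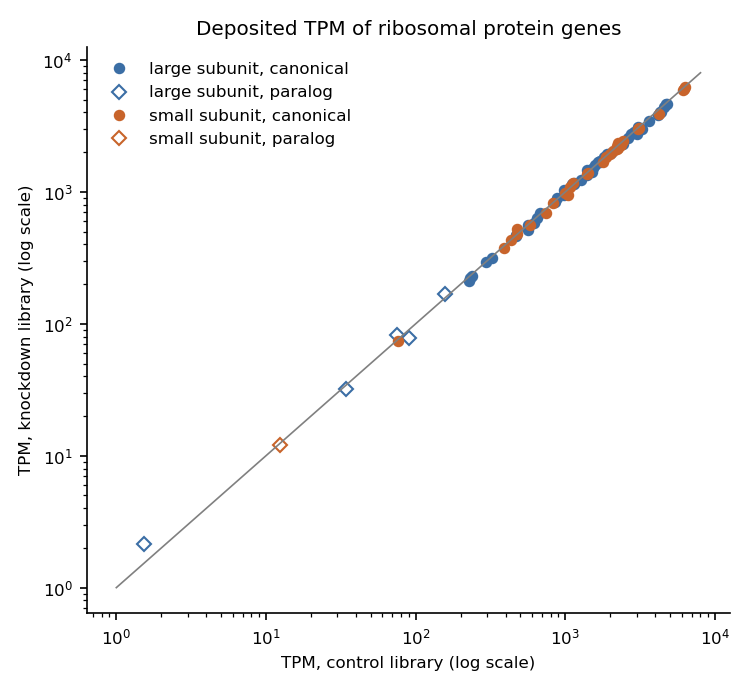
Deposited TPM in the control (x axis) and the knockdown library (y axis), both on log scales, for the 83 members with counts, with large subunit genes in blue, small subunit genes in orange, filled circles for canonical members and open diamonds for paralogs. The grey line marks equal TPM, and the canonical genes run along it from 76.2 TPM for RPS29 to 6328 TPM for RPS16 in the control.

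The 7 paralogs stood far below their canonical partners in both libraries, and they spread more widely around 0 than the canonical members. RPL39L, a paralog known best from testis and from cancers, had 588 counts (90.7 TPM) in the control and 527 (78.0 TPM) after knockdown, a log2 ratio of −0.24 (−0.41 to −0.071), the lowest of all members. Its partner RPL39, of the peptide tunnel, had 5463 and 5779 counts (−0.004, −0.057 to 0.05). The paralog thus stood at 5.76% of its partner's TPM in the control and at 4.88% in the knockdown library. Shares of TPM depend on the listed lengths of both genes, and by counts this share was 10.8% and 9.12%.

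RPL22L1 had 602 counts (34.4 TPM) in the control and 589 (32.3 TPM) after knockdown, a log2 ratio of −0.12 (−0.28 to 0.05). Its partner RPL22, an RNA-binding protein needed in T cell development, had 11278 and 11003 counts (−0.12, −0.16 to −0.082). The pair held the same proportion in both libraries, with the paralog at 5.59% and 5.60% of the TPM of RPL22. RPS27L had 673 and 688 counts, or 12.4 and 12.1 TPM (−0.053, −0.21 to 0.1) beside 7266 and 7392 for RPS27 (−0.06, −0.11 to −0.013). This pair also kept its proportion, at 0.885% and 0.89% of TPM or 9.26% and 9.31% of counts. The size of its share thus depends on the listed lengths, 6110 bases for RPS27L and 584 for RPS27.

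RPL26L1 and RPL7L1 were higher in the knockdown library. RPL26L1 had 1163 counts in the control and 1338 after knockdown (0.12, 0.003 to 0.23), while RPL26 had 13748 and 14028 (−0.056, −0.09 to −0.022). RPL7L1, related to an assembly factor of the large subunit, had 6397 and 7179 counts (0.082, 0.033 to 0.13), while RPL7 had 46560 and 48284 (−0.032, −0.051 to −0.014). In both pairs the intervals of paralog and partner did not overlap, and the paralog's share of its partner's TPM went from 4.39% to 4.95% for RPL26L1 and from 5.46% to 5.91% for RPL7L1. By counts these shares were 8.46% and 9.54% for RPL26L1 and 13.7% and 14.9% for RPL7L1.

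RPL3L, known from striated muscle, had 35 counts (1.52 TPM) in the control and 52 (2.16 TPM) after knockdown, a log2 ratio of 0.49 (−0.16 to 1.15) whose interval included equal levels. RPL10L, a retrogene known from testis, had 0 counts in both libraries, which allows up to 3 counts in each. Together the paralogs made up 9458 counts in the control and 10373 after knockdown, or 0.0382% and 0.0398% of all counts.

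Counts of ribosomal protein genes carry uncertainty beyond counting error. Processed pseudogenes near-identical to them lie across the genome, and how reads that fit several places were treated is not given. The 31 listed pseudogenes of 19 members held 1688 counts in the control and 1939 after knockdown, 0.115% and 0.130% of the members' counts. Of the members, 20 overlap another measured gene, 17 of them one on the other strand. RPS10, RPL17 and RPL36A lie within readthrough genes on the same strand, which were listed with 14301, 11534 and 7826 counts in the control and 15239, 12008 and 8775 in the knockdown library. Whether the same reads were counted for both genes is not given, and without the overlapping members the median of the rest was −0.056.

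RPS27A, a member whose protein is made as a fusion to ubiquitin, had 18176 counts in the control and 18618 after knockdown (−0.05, −0.08 to −0.02). Genes of ribosomal proteins that the naming rule leaves out lay in the same narrow range. FAU, whose ribosomal protein is made as a fusion to a ubiquitin-like protein, had 6227 and 6725 counts (0.026, −0.024 to 0.076). RACK1, a signalling scaffold on the 40S head, had 43757 and 43491 counts (−0.093, −0.11 to −0.074), and RPL36AL, a paralog of RPL36A, had 2371 and 2709 (0.11, 0.028 to 0.19).

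Other messages with a TOP tract, among them those of elongation factors and subunits of EIF3, had a median of −0.048 over 18 genes, 12 of them below 0. Of the 18, 1 was at least 1.2-fold higher, EIF3F with 3833 and 5002 counts (0.3, 0.24 to 0.36). At least 1.2-fold lower was 1, PABPC1, the cytoplasmic poly(A)-binding protein, with 69496 and 37988 counts (−0.96, −0.97 to −0.94). The 11.1% past 1.2-fold stand beside 22.0% of all genes measured (10.3% higher, 11.7% lower), of which 51.6% lay below 0. EEF1B2, of the elongation factor complex, had 7178 and 6592 counts (−0.21, −0.26 to −0.16). The median of these genes lay beside that of the ribosomal protein genes, but their standard deviation, 0.247, was set by these few.

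Among regulators of TOP messages, 2 of 12 were at least 1.2-fold lower and 0 higher, beside 11.7% and 10.3% of all genes measured. MLST8, a subunit of both mTOR complexes, had 1431 counts in the control and 1070 after knockdown (−0.5, −0.62 to −0.39), and EIF4EBP1, the translational repressor that mTOR phosphorylates, had 2255 and 1888 (−0.34, −0.43 to −0.25). RPTOR had 1918 and 2311 counts (0.18, 0.096 to 0.27). LARP1, the repressor that binds the TOP tract, had 12128 and 13963 (0.12, 0.083 to 0.15) and was named after its value was seen.

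Dedicated chaperones that carry single ribosomal proteins had a median of 0.013 over 9 genes, 4 of them below 0. PDCD2L had 1446 and 1252 counts (−0.29, −0.4 to −0.18), and GRWD1, the chaperone of the RPL3 protein, had 1303 and 1217 (−0.18, −0.3 to −0.069). TSR2, the chaperone of the RPS26 protein, had 1955 counts in the control and 2428 after knockdown (0.23, 0.14 to 0.32). TSR2 was the highest of its list and RPS26 the highest of the canonical members, and no relation between them was tested.

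Ribosome biogenesis factors had a median of −0.037 over 55 genes, with 31 below 0, 4 at least 1.2-fold higher and 2 at least 1.2-fold lower. The 10.9% past 1.2-fold stand beside 22.0% of all genes measured, of which 51.6% lay below 0. NOLC1, a nucleolar phosphoprotein, had 3637 and 7290 counts (0.92, 0.86 to 0.98), MPHOSPH10 had 644 and 949 (0.47, 0.33 to 0.62), and NOB1, the nuclease that matures 18S rRNA, had 2533 and 2023 (−0.41, −0.49 to −0.32). Mitochondrial ribosomal protein genes, the counterpart in the other ribosome of the cell, had a median of 0.027 over 78 genes with 37 below 0, and 5 were at least 1.2-fold higher and 3 lower (10.3% in either direction, against the same 22.0%). MRPL22 had 759 and 1037 counts (0.37, 0.23 to 0.5), MRPS34 had 1560 and 2112 (0.35, 0.26 to 0.45) and MRPL46 had 399 and 537 (0.34, 0.15 to 0.53). Genes whose name starts with EIF and a number had a median of 0.063 over 52 genes with 20 below 0. They include EIF genes already counted in other lists, such as EIF3F among the TOP messages and EIF6 among the biogenesis factors. EIF3CL had 167 and 234 counts (0.4, 0.11 to 0.7). Its near-identical copy EIF3C had 783 and 775 (−0.099, −0.245 to 0.046), and how reads that fit both were treated is not given. EIF4A2 had 5356 and 4522 (−0.33, −0.39 to −0.27).

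The standard deviation of the log2 ratio was 0.052 over canonical ribosomal protein genes, 0.147 over mitochondrial ribosomal protein genes, 0.155 over EIF genes and 0.202 over biogenesis factors, and 0 of the 77 canonical members passed 1.2-fold, where 10.3% of mitochondrial ribosomal protein genes and 9.62% of EIF genes did. The 78 mitochondrial ribosomal protein genes held 112175 counts in the control, against 1455378 for the 77 canonical members, and the part of counting error in the wider spread was not tested.

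**Figure D4:**
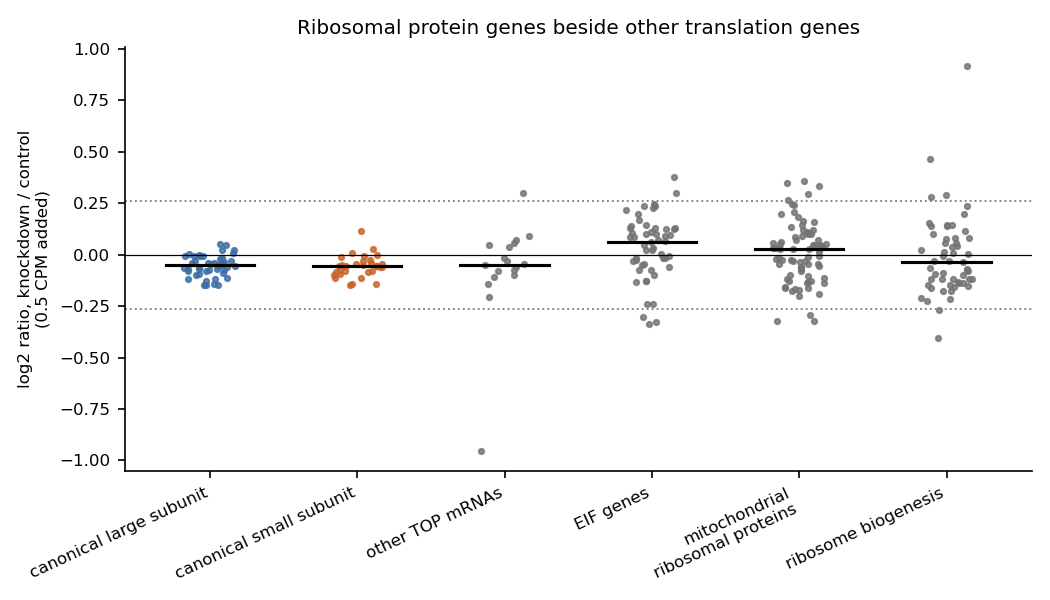
Log2 ratio of knockdown over control with 0.5 CPM added (y axis) for each gene (points) of the canonical large subunit (46 genes), the canonical small subunit (31), other TOP messages (18), EIF genes (52), mitochondrial ribosomal protein genes (78) and ribosome biogenesis factors (55), with black bars at the medians and dotted lines at 1.2-fold. The points of both ribosomal subunits lie between −0.15 and 0.12, and those of the other groups reach past 1.2-fold in both directions. Some genes are drawn in several groups, such as EIF3F (TOP and EIF), NPM1 (TOP and biogenesis) and EIF6 (EIF and biogenesis).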

How the data were processed

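Poly(A)-selected RNA of H1299 cells was sequenced in 2 libraries, 1 per group, grouped by the treatment label. Per the submitters' processing notes, HISAT2, HTSeq and hg38 were used, and versions, strand setting and the handling of multiply mapped reads are not stated in these sources. The authors deposited raw counts per gene, and TPM values that equal counts per listed length scaled to 1000000 (to within 2.5e-11). No line lacked a gene name, and 0 columns of sample values were left unused.

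TMM factors (edgeR 4.0.16, R 4.3.3) were computed over all 38637 genes (control 0.997, knockdown 1.003). Group values use log2 of CPM plus 0.5 for genes averaging at least 1 CPM. Ratios of single genes carry no pseudocount and have exact conditional Clopper-Pearson 95% intervals for 2 Poisson counts. No p-value was computed, as each group has 1 library, and genes were counted by size, at 1.2-fold. The computation was tested on simulated data. Intervals and the limit of 3 counts for a count of 0 cover counting error only.

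Members, gene lists and rules were chosen with earlier results of these data known. Named are the 6 highest and 6 lowest members of each subunit, the extremes by TPM, paralogs with partners, the stalk, the 5S particle, the ubiquitin fusion RPS27A, unmeasured members, and up to 3 genes of other lists by size of the log2 ratio. Values of a few selected genes are left out here, though group values include them. Others named were chosen after their values were seen. DESeq2 1.42.0 gave alternative size factors, and Python 3.11.15 with scipy 1.17.1 was used.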

Additional observations from a re-analysis of the deposited data

How the results depend on the processing

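The median log2 ratio of all members stayed between −0.0559 and −0.0285 under every alternative run, against −0.0534. With the deposited TPM the median of the large subunit was −0.0233 and that of the small subunit −0.0289. The summed counts of the knockdown library stood at 0.9621 of the control when scaled by total counts and at 0.9689 with DESeq2 size factors, against 0.9565. The number at least 1.2-fold higher was 1 (RPL3L), and 0 with a minimum of 5 CPM, without paralogs, at 1.5-fold and at 2-fold. It was 0 downwards in every setting run. The number below 0 was 70 of 83 and lay between 61 (deposited TPM) and 70 under the other scalings. The difference between subunits was 0.0056 and was −0.0033 without members overlapping another measured gene, an alternative added after the data were seen, as were the counts below 0 and lengths from principal transcripts. The size of the difference between subunits stayed under 0.0306. That value combines the counting half-widths of 1 gene near each median and is not the counting error of the difference. Canonical members with a counting interval above equal levels numbered 3, and 5 with total counts and 6 with DESeq2 size factors, also added after the data were seen. Of 87 alternative values, 77 stayed within a set tolerance. For counts it was a change of at most 1.5 times, and for ratios of sums their counting half-width. For medians it was the counting half-width of the single gene nearest the median (0.0295 for all members), which is not the counting error of a median. By that tolerance the change of the median from −0.0534 to −0.0285 with the deposited TPM counted as within it. No library could be left out and no paired analysis was possible because each group holds 1 library. Depth limits what can be said of RPL3L (35 and 52 counts) and RPL10L (0 counts), and the lack of replicates limits every member.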

Other observations

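Among the listed pseudogenes of ribosomal protein genes, RPL23AP7 had the most counts, 312 in the control and 379 after knockdown, and RPL13AP20 had 156 and 252. Their parent genes had 9506 and 10235 counts (RPL23A) and 32379 and 31385 (RPL13A). Both pseudogenes were named after their values were seen. RPL36 overlaps LONP1, a mitochondrial protease gene on the other strand, which had 2967 counts in the control and 4535 after knockdown (log2 ratio 0.53), while RPL36 had 5937 and 6094.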
